A study of Mus musculus with 12 samples.

Results

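The lysosomal enzymes and membrane proteins were 38 genes chosen by name for their place in the organelle, and 37 of them had a probe set on the MOE430A array. They carried 71 of the 22626 probe sets tested, and each gene was taken at the probe set with the highest mean log2 signal over the 12 arrays, as was done for all 12393 genes with a probe set. Cd63 was not analysed here. The arrays held RNA of sorted GFP+ Sca-1+ Lin- mouse bone marrow cells, 24 hours after the end of co-culture with retrovirus producer cells, from (C57Bl/6Ly-Pep3b×C3H/HeJ) F1 mice older than 12 weeks. There were 3 arrays each for ND13 (the leukemia-associated NUP98-HOXD13 fusion), NA10 (an engineered NUP98-HOXA10 fusion), ND13(N51S) (ND13 with a homeodomain mutation that removes DNA binding) and the GFP control (the MSCV vector with GFP alone). All 4 groups shared a 5-fluorouracil dose of 150 mg/kg to the donor animals, 4 days ahead of marrow collection, then 48 hours in IL-3, IL-6 and stem cell factor and 2 days on irradiated GP+E86 cells. All carried GFP from the same retroviral vector, whose promoter and not that of NUP98 drives the fusions. The comparisons ask which genes the DNA-binding fusions move, with the mutant and the empty vector as controls.

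The values were MAS5 signals on a linear scale, and the background of an array, taken as the 95th percentile of its 27 bacterial control probe sets, lay between 28.5 and 69.8. All 8 stem and progenitor markers measured, among them Kit, Cd34, Meis1 and Gata2, were above background on all 12 arrays. Of 6 T and NK cell markers measured, 0 were above background on all arrays, but they did not all stay low. Cd4 and Cd3e had signals of 8.8 to 32.3, whereas Cd8a had 32.4 to 143.9, Cd5 4.6 to 88.1 and Ncr1 8.2 to 111.1. A pair of arrays was in doubt. For GFP control replicate 1 an accompanying record names GFP- cells from the ND13(N51S) culture, and ND13(N51S) replicate 2 had a Gapdh 3′ to 5′ signal ratio of 48.9, whereas the other arrays had 1.90 to 2.71. Both were kept under their labels. Since these are bulk samples, fewer cells of a type and less RNA per cell cannot be told apart.

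Lysosomes degrade proteins, glycans and lipids that reach them by endocytosis, phagocytosis or autophagy. Their hydrolases work at the acid pH that a proton pump maintains, most are tagged with mannose 6-phosphate on their way from the Golgi, and heavily glycosylated membrane proteins such as LAMP1 and LAMP2 line the organelle. Among blood cells, macrophages and other phagocytes are rich in lysosomes, and cathepsin S and legumain serve antigen presentation there. Many lysosomal genes share a promoter palindrome, the CLEAR element, that TFEB, TFE3 and MITF are known to bind.

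The promoter sequences below are shown because they carry 6 letters of that element, CACGTG. They include Cln3 and Glb1, in which all arrays of the active fusions lay above those of both controls. Laptm5 separated in the same way and lacks the letters. Lgmn, Ctsd, Mcoln1 and Gla hold them, and their arrays overlapped the GFP control in each fusion. Of the other holders, Lamp1 lay above the GFP control on all arrays of each fusion, and Ctsa on those of both active fusions. Ctsl did so in ND13 and the mutant, and Gaa in the mutant alone. The E-box CACGTG and the longer palindrome TCACGTGA, which contains it, read the same on both strands and were searched from 250 bases before to 50 bases after each annotated start in RefSeq (GRCm38.p6). Of the 38 genes 34 had a promoter in that table, without Ctsb, Ctse, Ctsh and Asah1. CACGTG was found in 10 of the 34 (29.4%), against 8.09% of 27025 genes overall. TCACGTGA was found in 5 of the 34 (14.7%), against 1.12% of all genes, and these were Cln3, Ctsa, Ctsd, Gla and Mcoln1. The runs lie before the start, read 5′ to 3′ on the strand of the gene, and capitals mark CACGTG.
Cln3, chr7:126583336-126583401, minus strand: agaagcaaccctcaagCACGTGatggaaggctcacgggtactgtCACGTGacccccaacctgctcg
Glb1, chr9:114401014-114401051, plus strand: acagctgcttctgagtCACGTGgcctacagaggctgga
Lamp1, chr8:13159084-13159160, plus strand: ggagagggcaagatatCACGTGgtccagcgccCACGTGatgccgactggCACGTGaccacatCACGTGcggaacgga
Lgmn, chr12:102439120-102439157, minus strand: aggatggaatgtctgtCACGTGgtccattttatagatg
Ctsd, chr7:142387904-142387941, minus strand: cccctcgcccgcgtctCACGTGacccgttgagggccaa
Ctsa, chr2:164833745-164833772, plus strand: acaatgagcaaactgtCACGTGatgcag
Mcoln1, chr8:3500432-3500495, plus strand: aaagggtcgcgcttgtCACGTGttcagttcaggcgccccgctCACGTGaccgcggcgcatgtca
Gla, chrX:134601178-134601248, minus strand: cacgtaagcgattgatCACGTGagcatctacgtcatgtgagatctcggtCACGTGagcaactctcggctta
Ctsl and Gaa hold the 6 letters as well. Lamp1 holds them 4 times within 77 bases, and Cln3 holds them 121 and 149 bases before the start. These are matches of letters, not binding sites.

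**Figure D1:**
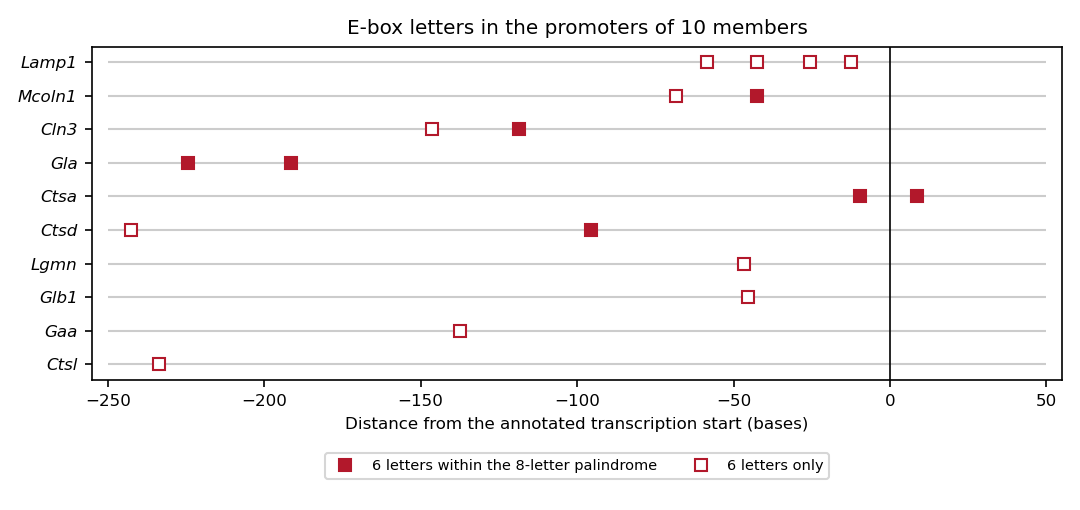
Positions of the 6 E-box letters in the promoters of the 10 members that hold them, as distance in bases from the annotated transcription start (x axis), with 1 row per gene; filled squares lie within the 8-letter palindrome. Lamp1 has 4 matches within 77 bases of its start, and 5 genes hold the 8-letter form.

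Lysosomal genes were measured at higher signals with each active fusion than with the GFP control, by small steps that few genes passed alone. The median log2 difference over the 37 members was 0.33 for ND13 and 0.25 for NA10 against the GFP control, while over all 12393 genes it was 0.01 and -0.005. With ND13, 30 of the 37 members had a difference above 0, and with NA10 it was 29, where 51.3% and 49.4% of all genes did. The 3 ND13 arrays lay above all 3 GFP control arrays in 12 of the 37 members (32.4%), against 7.89% of all genes, and below them in 1 (Ids), against 5.65%. For NA10, 11 members (29.7%) lay above and 0 below, where 6.5% and 5.38% of all genes did; the 11 include Acp5, which was under background on all NA10 and GFP control arrays. Without GFP control replicate 1 the counts above were 14 and 12, against 12.2% and 10.5% of all genes.

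With ND13(N51S) the median was 0.15, against 0.09 over all genes, and 25 members had a difference above 0, against 58.6% of all genes. The arrays lay above the GFP control in 6 members (16.2%), against 9.34% of all genes, and below it in 0, against 2.82%. The 6 again include Acp5, above background on 1 mutant array. These values rest in part on ND13(N51S) replicate 2, in which 11 of the 37 members (29.7%) were more than 1.5-fold below both other arrays of the group, as were 18.7% of all genes. Without that array the median was 0.32 and 13 members (35.1%) lay above the GFP control, against 17.5% of all genes. With all arrays kept and each centred on its median, the median was 0.04, to be set against the 0.15. Centring was not run without ND13(N51S) replicate 2.

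**Figure D2:**
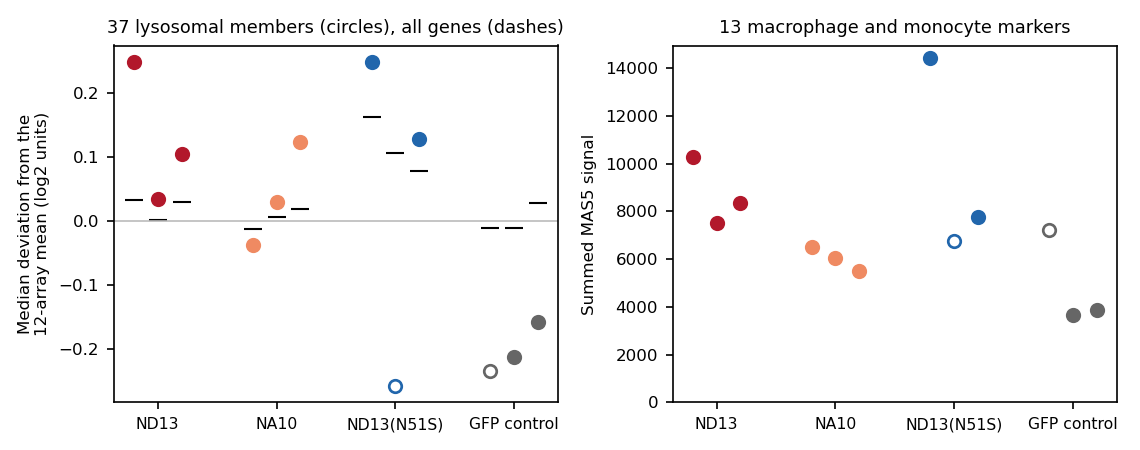
Left, median deviation of the 37 members from their 12-array means in log2 units on each array (circles) and of all genes (dashes); right, summed MAS5 signal of 13 macrophage and monocyte markers; open symbols mark the arrays in doubt. The members are lowest on the 3 GFP control arrays (-0.23 to -0.16) and on ND13(N51S) replicate 2 (-0.26).

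No member was called, where a call needed an adjusted p below 0.05 in limma, with Benjamini-Hochberg adjustment over all probe sets, and a change of at least 1.5-fold. In ND13 against the GFP control 0 of 37 were called, and 0.084% of all probe sets were called higher and 0.00442% lower; at an unadjusted p below 0.05 and 1.5-fold, 3 members were higher and 0 lower, where 3.79% and 1.4% of all genes passed. In NA10 against the GFP control 0 were called (0.0133% of probe sets higher, 0% lower), and 0 members passed unadjusted, where 2.81% and 1.5% of genes did. In ND13(N51S) against the GFP control 0 were called (0% of probe sets in each direction), and 7 members were higher and 0 lower unadjusted, where 4.95% and 1.69% of genes were. The methods' t-test called 0 after adjustment in each of these comparisons and passed 3, 0 and 2 members before it. With the replicate number as a block, Ctsh was called in ND13, where 0.274% of probe sets were called higher and 0.0221% lower, and Ctsh and Ctss were called in ND13(N51S), where 0.0133% were called in each direction, both against the GFP control.

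**Figure D3:**
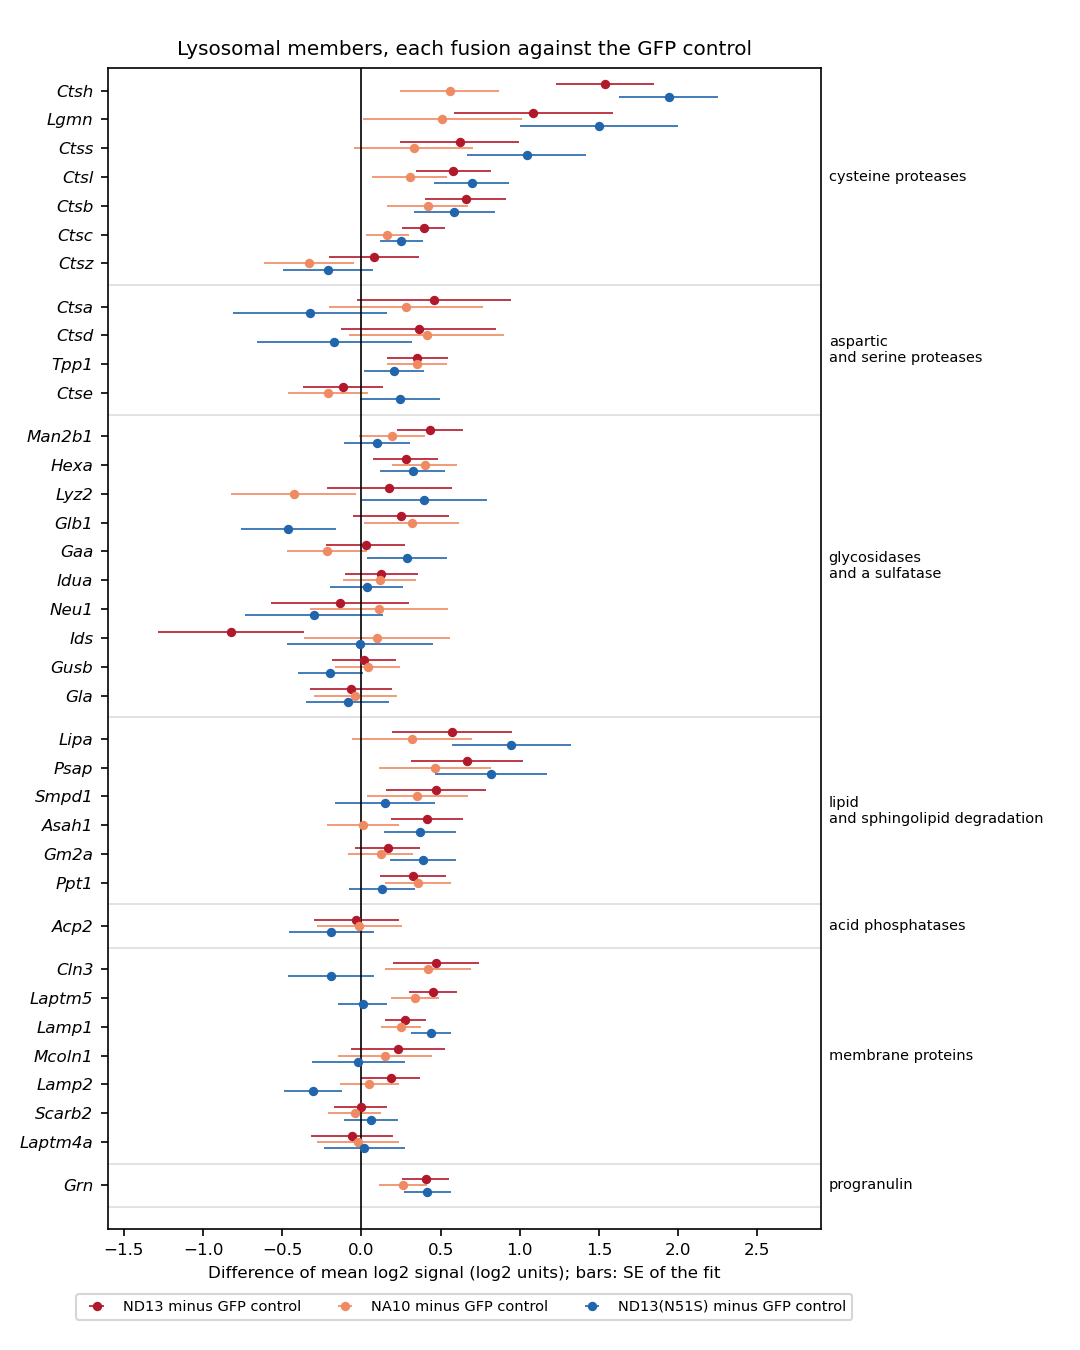
Difference of mean log2 signal between each fusion and the GFP control (x axis, log2 units) for 36 members grouped by role, with the SE of the fit as bars; Acp5, below background on 11 of 12 arrays, is left out. Ctsh and Lgmn stand furthest to the right for ND13 and ND13(N51S). Cln3, Laptm5 and Glb1 have ND13 and NA10 to the right of ND13(N51S), as do other members, among them Ctsd, Ctsa and Lamp2.

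Among the cysteine proteases, Ctsh and Lgmn differed most from the GFP control, and in both genes the means of the mutant and of ND13 were above that of NA10. Ctsh, cathepsin H, an aminopeptidase, had signals of 678, 399.7 and 403 in ND13 cells, of 299, 238 and 200.3 in NA10 cells and of 864, 592 and 492 in ND13(N51S) cells, against 161, 225 and 123 in the GFP control. All arrays of ND13 and ND13(N51S) were above those of NA10 and the control, while NA10 and the control overlapped. The difference from the control was 1.54 ± 0.31 log2 units (SE), or 2.9-fold, for ND13, with an adjusted p of 0.12 by limma and of 0.026 with the replicate block. For ND13(N51S) it was 1.94 ± 0.31, or 3.84-fold, with adjusted p-values of 0.21 and, with the block, 0.024. Over all alternatives the adjusted p ranged between 0.026 and 0.67 for ND13 and between 0.024 and 0.79 for ND13(N51S), so the call depends on the block. For NA10 the difference was 0.56 ± 0.31.

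Lgmn encodes legumain, which cuts after asparagine and activates other cathepsins. Its signals were 582, 278 and 235 in ND13 cells, 254, 219.5 and 206 in NA10 cells, and 1033, 227 and 384 in ND13(N51S) cells, against 251, 150.4 and 105 in the GFP control. The groups overlapped through GFP control replicate 1, the highest of the controls, and ND13(N51S) replicate 2, the lowest of its group. The differences from the control were 1.09 ± 0.50, 0.51 ± 0.50 and 1.5 ± 0.50 log2 units in the order ND13, NA10 and mutant, with adjusted p-values of 0.865 for ND13 and 0.543 for the mutant. Without both arrays they were 1.42, 0.84 and 2.32, and all arrays of each fusion then lay above the control.

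Ctss, cathepsin S, which trims the invariant chain in antigen-presenting cells, had signals of 4874, 3428 and 2037 in ND13 cells, 3007, 3304 and 1876 in NA10 cells and 5969, 5064 and 2705 in ND13(N51S) cells, against 2829, 2385 and 1387 in the GFP control. Within each group replicate 3 was the lowest, so the groups overlapped although each fusion array was above the control array of its number. The difference was 1.04 ± 0.38 log2 units for ND13(N51S), with an adjusted p of 0.58, and of 0.037 with the block (0.037 to 0.90 over all alternatives). For ND13 it was 0.62 ± 0.38 and for NA10 0.33 ± 0.38.

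Ctsb and Ctsl, the broad endopeptidases cathepsin B and L, also had means above the control in each fusion. Ctsb had 5439.8, 3774 and 4082 in ND13 cells, 3582, 3881 and 3668 in NA10 cells and 6855, 2897 and 3642 in ND13(N51S) cells, against 2957, 2703 and 2669.8 in the GFP control. Both active fusions were above the control on all arrays (0.66 ± 0.26 and 0.42 ± 0.26 log2 units), and the mutant overlapped it through replicate 2 (0.59 ± 0.26). Its other 3 probe sets gave 0.74 to 1.57 for ND13 and 0.49 to 1.08 for NA10, but -0.36 to 1.06 for the mutant. The probe set with -0.36 had 2953, 121 and 2241 in ND13(N51S) cells, against 962, 1389 and 1257 in the GFP control. That value thus rests on ND13(N51S) replicate 2. For Ctsl the differences were 0.58, 0.30 and 0.70 ± 0.24, again in the order ND13, NA10 and mutant. Ctsc, cathepsin C, which activates the serine proteases of myeloid granules, had 5346 to 6038 in ND13 cells and 4455 to 5123 in NA10 cells and 4498 to 5459.6 in ND13(N51S) cells, against 4172 to 4412 in the GFP control. It lay above the control on every fusion array, by 0.39 ± 0.14, 0.16 ± 0.14 and 0.25 ± 0.14. Ctsz, cathepsin Z, was the exception of the group, with 1354 to 3059 over the 9 fusion arrays and 3545, 1880.1 and 2465 in the control.

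**Figure D4:**
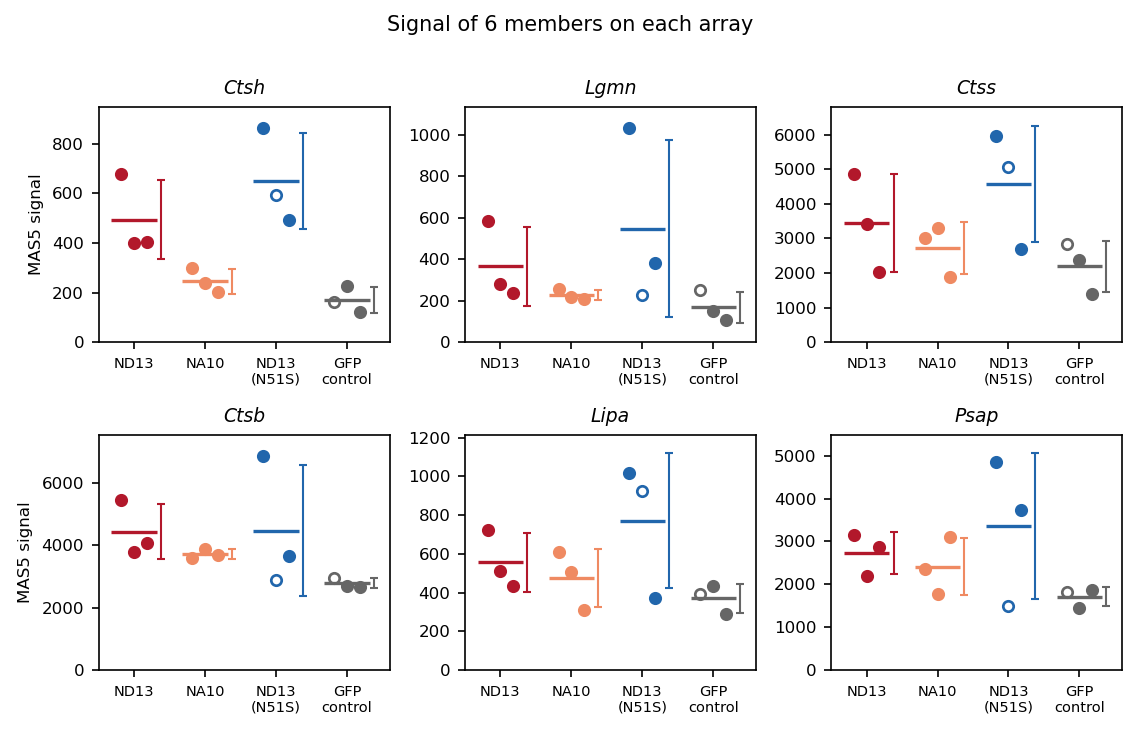
MAS5 signal (y axis, linear, from 0) of Ctsh, Lgmn, Ctss, Ctsb, Lipa and Psap on each of the 12 arrays by group, with the mean as a line and the SD as a bar (n = 3); open symbols mark the arrays in doubt. ND13 and ND13(N51S) lie above the GFP control on every array for Ctsh, and ND13(N51S) replicate 1 is the highest array in all 6 panels.

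Of the 14 listed markers of macrophages and monocytes 13 were measured, 9 of them above background on all arrays and none at or under it on all arrays. Their difference from the GFP control was above 0 in 12 of the 13 for ND13, in 10 for NA10 and in all 13 for the mutant, and the median difference from the GFP control was 1.03 log2 units for ND13, 0.57 for NA10 and 1.15 for the mutant. Their summed signal was 7502 to 10253 in ND13 cells, 5505 to 6516 in NA10 cells and 6742 to 14403 in ND13(N51S) cells, against 3669 to 7211 in the GFP control. The highest sums were those of ND13(N51S) replicate 1 and ND13 replicate 1, while the NA10 sums lay inside the range of the control, whose top was set by GFP control replicate 1 (the other control arrays had 3669 and 3857). With all arrays 0 of the 13 were called. Adgre1 (F4/80) was called with the replicate block in ND13 (1.63 log2 units, adjusted p = 0.043), and Cd68 without ND13(N51S) replicate 2 (1.21, adjusted p = 0.039). The tissue macrophage gene C1qa stayed at 6.0 to 21.8 on 11 arrays and had 300.4 on ND13(N51S) replicate 1. C1qb had 79.3 to 388 in ND13 cells, 113 to 536 in NA10 cells and 165 to 416 in ND13(N51S) cells. In the GFP control C1qb had 60.1 to 122. C1qc had 24.1 to 153, 4.1 to 64.5 and 13.1 to 260.8 in that order, against 6.6 to 54.0 in the control. The part of macrophages and monocytes in the lysosomal values was not tested.

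In 3 members all 6 arrays of the active fusions lay above all 6 arrays of the ND13(N51S) mutant and the GFP control, and they were Cln3, Laptm5 and Glb1. That was 8.11% of the members, against 0.516% of all genes, and 0 members lay below, against 0.258%. Without both arrays in doubt it was the same 3, against 1.04% of genes. In this comparison of ND13 and NA10 with both controls 0 members were called (0.0354% of probe sets higher, 0% lower), 0 passed at an unadjusted p below 0.05 with 1.5-fold by limma or by the methods' t-test (2.29% and 2.8% of genes by limma), and the median over the members was 0.10, against -0.04 over all genes, with 25 members and 45.1% of genes above 0. Without ND13(N51S) replicate 2 that median was 0.05, with 23 members above 0.

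Cln3, a membrane protein whose loss causes juvenile Batten disease in humans, is also on the list of selected genes of the study, which was chosen on these samples and is no independent evidence. Its signals were 673, 582 and 717 in ND13 cells and 634, 642 and 620.2 in NA10 cells, against 513, 252 and 545 in ND13(N51S) cells and 434, 439.7 and 553 in the GFP control. The lowest active array thus stood above the highest control array, which was GFP control replicate 3. The difference between the active fusions and both controls was 0.54 ± 0.19 log2 units, with an adjusted p of 0.51 by limma (0.23 to 0.71 over the alternatives). Against ND13(N51S) it was 0.66 ± 0.27 for ND13 and 0.61 ± 0.27 for NA10, and without ND13(N51S) replicate 2 it was 0.31 and 0.26.

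Laptm5 encodes a lysosomal membrane protein of blood cells that sends antigen receptors to degradation. It had 7580.4, 5996 and 5386 in ND13 cells and 6086, 6001 and 5285 in NA10 cells, against 4617, 4314 and 4884 in ND13(N51S) cells and 4239.9, 5070.2 and 4449.6 in the GFP control. Both control groups covered the same range, and neither array in doubt set the gap, which was 0.39 ± 0.11 log2 units (1.31-fold) with an adjusted p of 0.35 (0.14 to 0.62 over the alternatives), and 0.34 without both arrays. Against the GFP control alone the difference was 0.45 ± 0.15 for ND13, 0.34 ± 0.15 for NA10 and 0.01 ± 0.15 for the mutant. A second probe set showed a difference of -0.41 for ND13(N51S) where the others showed 0.16 and 0.01, while all 3 were above 0 for ND13 (0.44 to 0.72) and NA10 (0.20 to 0.46). The arrays separated only at the probe set used. At the others the lowest active arrays had 914 and 1105, and the highest control arrays 1323 and 3196.

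Glb1 encodes lysosomal beta-galactosidase. Its signals were 729, 721 and 801 in ND13 cells and 694, 684 and 1017 in NA10 cells, against 599, 257 and 624 in ND13(N51S) cells and 607, 641 and 642 in the GFP control. The gap to the controls was narrow, since the lowest active array had 684 and the highest control array 642. The difference was 0.51 ± 0.21 log2 units with an adjusted p of 0.59, and 0.31 without ND13(N51S) replicate 2. Lamp2 also lay above the mutant on all arrays of both active fusions but not above the GFP control, with 4149 to 5014 in ND13 cells and 3902 to 4753 in NA10 cells, against 2673 to 3848 in ND13(N51S) cells and 3419 to 4950.2 in the GFP control. Its 4 probe sets disagreed in sign for both ND13 and NA10 against ND13(N51S), with -0.25 to 0.69 and -0.27 to 0.67 log2 units.

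**Figure D5:**
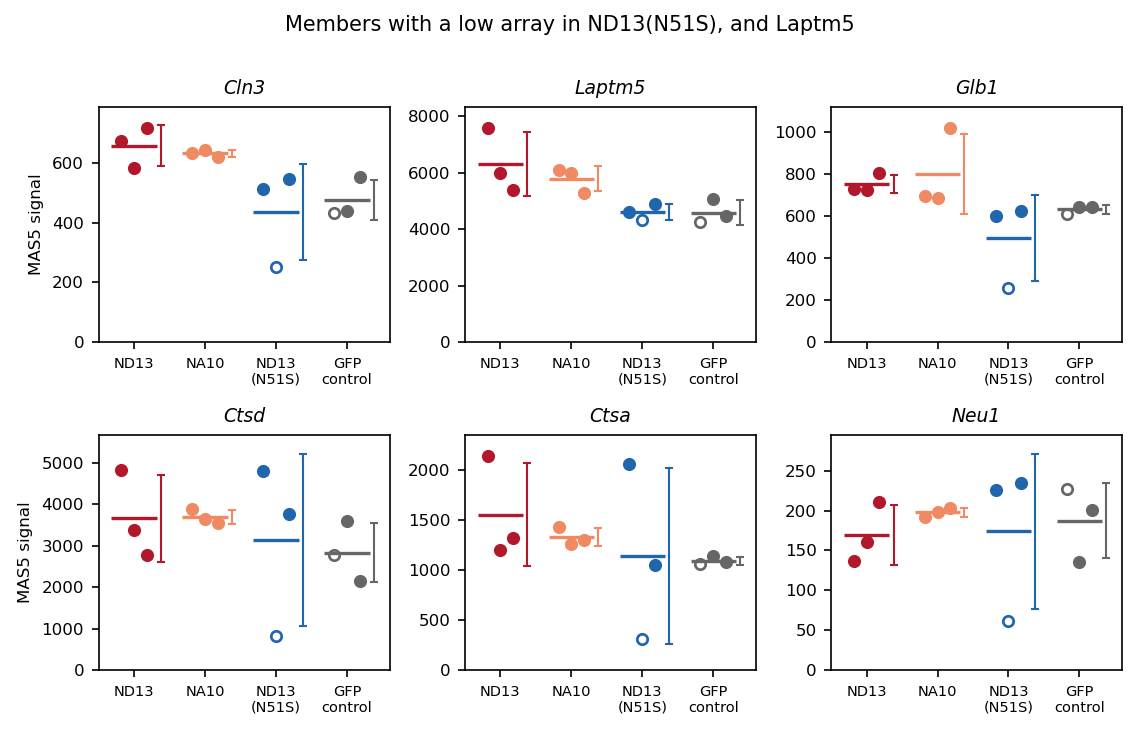
MAS5 signal (y axis, linear, from 0) of Cln3, Laptm5, Glb1, Ctsd, Ctsa and Neu1 on each of the 12 arrays by group, with the mean as a line and the SD as a bar (n = 3); open symbols mark the arrays in doubt. In the upper row all 6 ND13 and NA10 arrays lie above all ND13(N51S) and GFP control arrays, and ND13(N51S) replicate 2 is the lowest array in every panel but that of Laptm5, where GFP control replicate 1 is lower.

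The remaining membrane proteins differed little. Lamp1, whose promoter carries the 4 E-boxes, had 4666 to 5354 in ND13 cells, 4732 to 5385 in NA10 cells and 5481 to 5777 in ND13(N51S) cells, against 4098 to 4263 in the GFP control. All 9 fusion arrays were above the control, by 0.28 ± 0.13, 0.25 ± 0.13 and 0.44 ± 0.13 log2 units, the last with an adjusted p of 0.45. Mcoln1, the calcium channel mucolipin 1, had differences of 0.23, 0.15 and -0.02, the last of which was 0.27 without ND13(N51S) replicate 2. Scarb2, the receptor that carries glucocerebrosidase to lysosomes, and Laptm4a stayed between -0.06 and 0.06 in each fusion.

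The genes of lipid breakdown also lay above the control by their means, with all 6 above 0 for each fusion and medians of 0.44 log2 units for ND13, 0.34 for NA10 and 0.38 for the mutant. Psap, the precursor of the saposins that present sphingolipids to their hydrolases, had 3140.1, 2192 and 2874 in ND13 cells, 2362, 1769 and 3097 in NA10 cells and 4855, 1504 and 3724 in ND13(N51S) cells, against 1827, 1449.8 and 1869 in the GFP control. ND13 was above the control on all arrays (0.67 ± 0.35), whereas NA10 replicate 2 and ND13(N51S) replicate 2 lay within its range (0.46 ± 0.35 and 0.82 ± 0.35). Without ND13(N51S) replicate 2 the mutant's difference was 1.32. A further probe set gave 0.23 for ND13(N51S), and 0.54 and 0.27 for ND13 and NA10. Its signals were 1188, 187 and 1392 in ND13(N51S) cells, against 671, 455 and 623 in the GFP control. The 0.23 thus rests on the low value of ND13(N51S) replicate 2.

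Lipa, the acid lipase that frees cholesterol from its esters, had 726, 514 and 432 in ND13 cells, 608, 505 and 311 in NA10 cells and 1017, 924 and 373 in ND13(N51S) cells, against 392, 434 and 288 in the GFP control. As with Ctss, replicate 3 was the lowest of each group and the groups overlapped. The differences were 0.57, 0.32 and 0.95 ± 0.38 log2 units, with an adjusted p of 0.62 for the mutant, and its other probe sets gave -0.19 and 0.20 for ND13. Asah1 (acid ceramidase) and Smpd1 (acid sphingomyelinase) lay above the control on all ND13 arrays, by 0.41 and 0.47, and Gm2a and Ppt1, an activator of ganglioside breakdown and a thioesterase, differed by 0.17 and 0.33.

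Of the 4 aspartic and serine proteases, Ctsd and Ctsa were more than 1.5-fold below both other mutant arrays on ND13(N51S) replicate 2, and Tpp1 and Ctse were not. Ctsd, cathepsin D, had 4816, 3385 and 2763 in ND13 cells, 3878, 3653 and 3539 in NA10 cells and 4809, 823 and 3770.2 in ND13(N51S) cells, against 2765, 3582 and 2149 in the GFP control. The mutant's difference from the control was -0.17 ± 0.49 log2 units, and 0.62 without that array. Ctsa, the protective protein that holds neuraminidase and beta-galactosidase in a complex, had 2138, 1203 and 1314 in ND13 cells, 1432, 1257 and 1298 in NA10 cells and 2055, 309 and 1049 in ND13(N51S) cells, against 1059, 1137 and 1081 in the GFP control. Both active fusions lay above the control on all arrays, by 0.46 ± 0.49 and 0.28 ± 0.49, and the mutant's -0.32 turned to 0.43 without the array. Tpp1, a tripeptidyl peptidase, lay at 0.35 for each active fusion, and Ctse stayed between -0.21 and 0.25.

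The glycosidases showed no common direction, with medians over 10 genes of 0.08 log2 units for ND13, 0.10 for NA10 and 0.01 for the mutant. Without both arrays in doubt they were -0.02, -0.06 and 0.11. Hexa, the alpha subunit of beta-hexosaminidase, had 2684 to 3482 in ND13 cells, 3052 to 3647 in NA10 cells and 2399.5 to 3969.8 in ND13(N51S) cells, against 2079.5 to 2965 in the GFP control, and only NA10 cleared the control on all arrays (0.40 ± 0.21). Lyz2, lysozyme, which is also a marker of macrophages and neutrophils, had 3190.4, 1793 and 2308 in ND13 cells, 1706, 1566 and 1407 in NA10 cells and 5572, 1497 and 2506 in ND13(N51S) cells, against 3129, 1824 and 1603 in the GFP control. NA10 stood below ND13 on all arrays and overlapped the control (-0.43 ± 0.40). Ids, the iduronate sulfatase, was near background, with 26.8, 52.9 and 52.4 in ND13 cells against 55.2, 77.7 and 96.0 in the control (-0.82 ± 0.46). ND13 was lower on all arrays, but only 1 of its 3 values was above background. The other probe sets of Ids gave -1.74, -0.19, 0.12 and 0.49 for ND13 against the control. In that order they were above background on 3, 2, 7 and 10 of the 12 arrays. Neu1, the sialidase, had 136, 160.4 and 211 in ND13 cells, 192, 198 and 203 in NA10 cells and 226, 62.0 and 234 in ND13(N51S) cells, against 227, 135 and 200.5 in the control. The groups overlapped, and the mutant's difference was -0.30, or 0.33 without replicate 2. A further probe set of Neu1 gave -1.69 for the mutant. Its signals in ND13(N51S) cells were 38.8, 11.6 and 13.3, each under the background of its array, so that value is one at the floor. Gaa, Gla, Gusb, Idua and Man2b1, which act on glycogen and other glycans, lay between -0.22 and 0.43 in all 3 fusions.

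Of the acid phosphatases, Acp2 overlapped the control in each fusion (-0.19 to -0.01 log2 units), and Acp5, the osteoclast and macrophage enzyme, was above background on 1 array, ND13(N51S) replicate 3, so no fold is given. Grn, the precursor of the granulins that lysosomal proteases release, had 12217, 9141 and 10901 in ND13 cells, 9606, 9964 and 9462 in NA10 cells and 11539.6, 11704 and 9227 in ND13(N51S) cells, against 9388, 7209.8 and 7754 in the GFP control. NA10 was above the control on all arrays (0.26 ± 0.15), and GFP control replicate 1 overlapped ND13 (0.40 ± 0.15) and the mutant (0.42 ± 0.15). All 3 of its probe sets lay above 0 for each fusion.

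ND13 differed from the mutant by a median of 0.04 log2 units over the members, against -0.07 over all genes, and NA10 by -0.04, against -0.09. A difference above 0 was found in 20 members for ND13 and in 18 for NA10, against 43.3% and 41.5% of all genes. ND13 lay above the mutant on all arrays in 4 members (3.96% of genes) and below it in 2, Ids and Lamp1 (8.81%). NA10 lay above it in the same 4, Glb1, Lamp2, Laptm5 and Cln3 (4.01%), and below it in 4, Ctse, Ctsh, Gaa and Lamp1 (10% of genes). In ND13 against ND13(N51S) 0 members were called (0.0133% of probe sets higher, 0% lower), and 2 were higher and 0 lower unadjusted, where 2.75% and 3.92% of genes were. In NA10 against ND13(N51S) 0 were called (0.00442% higher, 0.00442% lower), and 2 were higher and 1 lower unadjusted, where 2.37% and 5.27% of genes were; the methods' t-test passed 0 and 1. The members higher were Glb1 and Cln3 in both, and the member lower was Ctsh, with 299, 238 and 200.3 in NA10 cells against 864, 592 and 492 in ND13(N51S) cells (-1.38 ± 0.31, adjusted p = 0.29). The 7 cysteine proteases were all below 0 in NA10 against the mutant (median -0.39), and 3 of the 7 were above 0 in ND13 against the mutant (median -0.12).

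Most of these counts changed when ND13(N51S) replicate 2 was left out. The medians over the members were then -0.10 for ND13 and -0.18 for NA10, against -0.10 and -0.11 over all genes, and 13 and 9 of the 37 members had a difference above 0, as had 5041 and 4895 of the 12393 genes. ND13 lay below the mutant on all arrays in 6 members (16.5% of genes), which were Gaa, Ids, Neu1, Psap, Gm2a and Lamp1, and above it in the same 4 as before (7.75%). NA10 lay below it in 11 (18.4%), among them Ctsh, Ctsz, Lgmn, Lyz2 and Psap, and above it in 5 (8.13%), with Idua added. At an unadjusted p below 0.05 with 1.5-fold, ND13 had 1 member higher (Lamp2) and 1 lower (Psap), where 279 and 470 genes passed, and NA10 had 0 higher and 4 lower (Ctsh, Lgmn, Lyz2 and Psap), where 281 and 649 genes passed. Glb1 and Cln3 no longer passed. Of the 7 cysteine proteases 1 was then above 0 in ND13 cells (median -0.19) and 0 in NA10 cells (median -0.47).

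Between the active fusions, ND13 had the higher mean in all cysteine proteases. All 7 were above 0 (median 0.29 log2 units), where 26 of the 37 members and 51.7% of all genes were, with medians of 0.10 and 0.01, and Ctsc, Ctsh, Ctsz and Lyz2 lay above NA10 on all ND13 arrays, 10.8% of the members against 5.91% of all genes. Ids lay below, against 4.23% of genes. Here 0 members were called (0.0177% of probe sets higher, 0% lower), and 1, Ctsh, was higher and 0 were lower unadjusted (2.11% and 1.33% of genes), as in the methods' t-test. The difference of Ctsh was 0.98 ± 0.31, with an adjusted p of 0.9998 by limma and of 0.51 with the replicate block.

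The wider lysosomal pathway held no call in any of the comparisons on all arrays, with or without the block. Without ND13(N51S) replicate 2, Cd68 was called in ND13 against the GFP control, as were 26 genes in all, and Laptm4b, a transmembrane protein of late endosomes and lysosomes, in ND13 and NA10 against both controls (1.08 log2 units, adjusted p = 0.038), as were 18 genes in all; with all arrays their adjusted p-values were 0.36 and 0.298. Among 18 other hydrolases and activators the median was 0.12, 0.11 and 0.13 log2 units in ND13, NA10 and mutant cells relative to the GFP control. Of these, 2, 2 and 0 were higher unadjusted with 1.5-fold, where 3.79%, 2.81% and 4.95% of all genes were. The smallest p was that of Sgsh in ND13 (0.90 ± 0.27) and of Pld3 in NA10 (1.01 ± 0.37). Pld3 is on the study's selected list, chosen on these samples. Among 13 other lysosomal membrane proteins the medians were 0.27, 0.11 and 0.21, and the macrophage antigen Cd68 had 1227, 1205 and 837 in ND13 cells, 718, 792 and 848 in NA10 cells and 1158, 371 and 762 in ND13(N51S) cells, against 472, 479 and 438 in the control. The 16 subunits of the proton pump had medians of 0.07, -0.002 and 0.20, the 13 genes of mannose 6-phosphate tagging and sorting -0.05, -0.08 and -0.03, and 18 autophagy genes 0.08, 0.11 and 0.16. The 4 protease inhibitors had 0.36, 0.16 and 0.57. Several of these medians moved with the arrays in doubt. Without ND13(N51S) replicate 2 the mutant's median was 0.26 for the hydrolases and activators and 0.11 for mannose 6-phosphate tagging and sorting. Without both arrays the autophagy medians were -0.03, 0.04 and 0.11, and those of the protease inhibitors 0.39, 0.05 and 0.29.

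The 14 genes of the MiT/TFE factors and mTORC1 at the lysosome had medians of 0.06, 0.06 and 0.16 log2 units for ND13, NA10 and the mutant. Mitf had their smallest p in each comparison of active fusions with a control. In ND13(N51S) against the GFP control and in ND13 against NA10 other genes had it. Mitf encodes a factor that binds the E-box and is on the study's selected list, chosen on these samples. Its signals were 407, 281 and 263 in ND13 cells and 289, 248 and 294 in NA10 cells, against 194, 191 and 130 in ND13(N51S) cells and 100, 168 and 112 in the GFP control. All 6 active arrays were above all 6 control arrays, by 1.02 ± 0.20 with an adjusted p of 0.13, and 0.063 with the block. The 10 members with the E-box letters had a median difference of 0.32 for ND13 and 0.29 for NA10 against the GFP control, and the 23 measured members whose promoters lack them had 0.28 and 0.16. For ND13(N51S) it was -0.05 with the letters and 0.13 without them, and leaving out ND13(N51S) replicate 2 gave 0.37 and 0.20.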

How the data were processed

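RNA of 12 samples, 3 per group by their labels, was measured on MOE430A arrays; the methods call the replicates biological, and p-values measure the spread between these samples. The deposited intensities were MAS5 signals on a linear scale, which the authors had scaled to a common trimmed mean (500.16 to 500.19); the GC-RMA values of the methods were not used here. No filter was set; log2 was taken of each signal, none of which lay under the floor of 0.01, and 64 control probe sets were left out of 22690. Limma 3.58.1 in R 4.3.3 (lmFit, eBayes with trend and robust) fitted all 12 arrays, with Benjamini-Hochberg adjustment over 22626 probe sets; a call needed an adjusted p below 0.05 and 1.5-fold, and 13.4 degrees of freedom were available on average. Precision is limited by how many arrays there are. Genes came from the platform annotation, matched by gene ID for 20351 probe sets; 691 probe sets with several genes and 1555 with none named no gene.

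The members and lists were chosen with earlier results of these data known. Named with values were members called with or without the block, per fusion the 4 largest rises and 2 largest falls among members above background, the member with the highest mean signal per role, Cln3, and other probe sets that differed in sign or by over 1 log2 unit. From the pathway lists Sgsh, Pld3, Cd68, Laptm4b and Mitf were named, each of smallest p in its list in some comparison. The genes of smallest p in the other pathway lists are not named. Lists are described by counts and medians only. Cell type markers of 12 lists were summed per array. Replicate numbers were checked for pairing: deviations from the group mean of same-numbered arrays correlated at 0.106 to 0.596 over probe sets above the median mean, and those of other numbers at -0.422 to 0.107. Over all probe sets the ranges were 0.0308 to 0.156 and -0.105 to 0.025. The labels do not state a pairing, and reading the numbers as pairs rests on the brighter probe sets, a choice made with results known. A blocked value stands wherever it moves a call. Alternatives were a dim filter, quantile normalisation, plain eBayes, median centring, a pseudocount of 32, only the groups compared, the methods' t-test, the mean of all probe sets of a gene, the block, array weights, and leaving out each array or both in doubt. The block without both arrays in doubt, and the counts and medians of lists without them, were chosen after seeing the data. Promoters are RefSeq's, GRCm38.p6. Plots used matplotlib 3.10.9.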

Additional observations from a re-analysis of the deposited data

How the results depend on the processing

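The replicate block moved the count of members called to 1 (Ctsh) in ND13 and 2 (Ctsh and Ctss) in ND13(N51S) against the GFP control, where it was 0, and changed no other call of a member. With the block and without both arrays in doubt it was 1 (Ctsh) in ND13 against the GFP control and 2 (Ctsh and Lyz2) in NA10 against ND13(N51S). All other alternatives gave 0 calls in the 7 comparisons, leaving out each array in turn included. The median shift in ND13(N51S) against the GFP control was 0.31 without both arrays in doubt, and 0.090 to 0.32 as each array was left out, the highest without ND13(N51S) replicate 2. The shifts of ND13 and NA10 against the GFP control stayed above 0 in all settings, at 0.24 to 0.38 and 0.15 to 0.30. Those of ND13 and NA10 against ND13(N51S) took both signs (-0.10 to 0.19 and -0.18 to 0.04). Of 29 single differences with an unadjusted p below 0.05 or a blocked call, none turned its sign over 696 refits, and 5 refits, all with the block, made a call. The 29 were picked by p in these same data, so a turn of sign was unlikely from the start. Their kept signs are no added support. At the unadjusted threshold with 1.5-fold, the methods' t-test passed 2 members in ND13(N51S) against the GFP control, where limma passed 7. With 3 arrays a group and changes mostly under 1.5-fold, the tests could miss changes of this size.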

Other observations

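Markers of other cell types than macrophages varied between the groups as well. The 8 mast cell and basophil markers had a median difference from the GFP control of -0.16 log2 units for ND13, 0.12 for NA10 and 1.16 for the mutant ND13(N51S), and their summed signal was 3047 to 3900, 3059 to 5074 and 4976 to 8320, against 2362 to 4143 in the GFP control. The 6 dendritic cell markers had medians of 0.38, 0.42 and 0.72 (0.70, 0.64 and 0.91 without both arrays in doubt), with Cd74, the invariant chain that cathepsin S cuts, at 3709, 1604 and 2244 in ND13 cells, 1203, 919.6 and 486 in NA10 cells and 4258, 1843 and 476 in ND13(N51S) cells, against 644, 414 and 563 in the GFP control. The 9 neutrophil markers had 0.40, 0.59 and 0.13, but -0.14, -0.07 and -0.06 without both arrays in doubt, the 5 early myeloid granule genes -0.37, -0.32 and 0.18, and the 5 megakaryocyte markers 0.28, 0.73 and 0.40. Without ND13(N51S) replicate 2 the mutant's median was 0.07 for the early granule genes and 0.67 for the megakaryocyte markers.

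The 8 stem and progenitor markers had -0.22, 0.11 and 0.34, the 5 erythroid markers -0.17, -0.29 and 0.34, and the 10 markers of fibroblasts and producer cells -0.10, -0.21 and 0.46, where the last was 0.20 without ND13(N51S) replicate 2. Of the 5 eosinophil, 6 T and NK cell and 6 B cell markers, 0, 0 and 1 were above background on all arrays, so no difference is given for them. None of these markers was called in any of these comparisons without the block, and the part of these cell types in the lysosomal values was not tested.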
